A study of Mus musculus with 7 samples.

Results

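Deposited label 4 is a group of intermediate progenitor-like cells of the developing mouse cortex, with high levels of Eomes and Neurog2. Its cells were taken as they stand in the authors' cell annotation, in which each of 10261 cells carries 1 of 19 numbered labels; 820 cells, or 7.99%, carry label 4. The cells came from dorsal forebrain, the part of the embryonic brain that forms the cerebral cortex, of CD-1 mice, an outbred strain. They were captured by Drop-seq, a droplet method in which each RNA molecule of a cell receives a unique molecular identifier (UMI), so that counts are of molecules rather than of amplified reads. Embryonic day (E) 14.5 gave 2 samples, and 1 sample each came from E10.5, E12.5, E15.5, E16.5 and E18.5, which makes 7. No engineered allele and no agent is named for any sample, so that stage is the labelled difference between them. Label 4 held 8 cells at E10.5, 239 cells at E12.5, 379 and 62 in the first and second E14.5 samples, 75 at E15.5, then 27 at E16.5, and 30 cells at E18.5. It is set here against labels 7 (497 cells), 1 (1143 cells) and 0 (1814 cells). Since the labels name no separate litters or dissections, the p-values below cover the spread of the samples at hand alone, and that spread may be technical.

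Radial glia, the stem cells that line the ventricle, give rise to intermediate progenitors, which leave the ventricular surface, lose Notch-driven stem cell features and divide away from the ventricle mostly to make glutamatergic neurons. The T-box transcription factor Eomes (also called Tbr2) is their classical marker. Neurog2 is the proneural bHLH (basic helix-loop-helix) factor that sets the neuronal program going in dorsal progenitors. Of the other markers given for the label, Gadd45g encodes a growth arrest and DNA damage inducible protein, Btg2 an antiproliferative factor linked to neuron-producing divisions, Mfng a fringe glycosyltransferase that modifies Notch receptors, Rhbdl3 a rhomboid-like membrane protein and Mfap4 an extracellular matrix glycoprotein.

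The promoters of 3 markers are shown: Eomes and Neurog2 because they had the highest marker levels in the label, and Gadd45g because its course over the stages differed between label 4 and each of the 3 compared labels. Each sequence is the 250 bases before the RefSeq start of the gene, on the gene's own strand, from the GRCm38.p6 table, which held 4 of the 7 markers. Capitals mark E-boxes, the CANNTG motif that bHLH factors such as Neurog2 bind and that reads the same on both strands. The stretches lie at chr9:118477939-118478188 (Eomes, plus strand), chr3:127632886-127633135 (Neurog2, plus strand) and chr13:51846425-51846674 (Gadd45g, plus strand). In GENCODE vM21, on the same build, the genes span 118478212 to 118486132 on chromosome 9 (Eomes), 127633135 to 127635631 on chromosome 3 (Neurog2) and 51846678 to 51848468 on chromosome 13 (Gadd45g), so that the stretches lie before the annotated gene start or end on its first base.
Eomes: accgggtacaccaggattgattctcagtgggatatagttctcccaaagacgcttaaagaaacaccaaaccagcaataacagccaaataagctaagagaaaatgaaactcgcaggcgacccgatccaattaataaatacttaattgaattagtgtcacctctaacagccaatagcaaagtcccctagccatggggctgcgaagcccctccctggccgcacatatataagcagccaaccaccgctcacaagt
Neurog2: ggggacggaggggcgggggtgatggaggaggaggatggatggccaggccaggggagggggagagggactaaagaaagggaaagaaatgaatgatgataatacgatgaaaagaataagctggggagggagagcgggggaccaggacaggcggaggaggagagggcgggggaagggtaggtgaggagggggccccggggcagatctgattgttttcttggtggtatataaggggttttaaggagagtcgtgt
Gadd45g: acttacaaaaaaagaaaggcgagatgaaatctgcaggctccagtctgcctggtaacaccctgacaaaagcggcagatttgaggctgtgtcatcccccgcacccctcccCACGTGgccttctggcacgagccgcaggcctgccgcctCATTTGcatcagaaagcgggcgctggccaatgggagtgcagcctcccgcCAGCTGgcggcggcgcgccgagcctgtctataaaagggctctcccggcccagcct
Gadd45g held 3 E-boxes in this window, at 142, 104 and 55 bases before the start, and Eomes and Neurog2 held none. An E-box was found in 66.0% of all 27025 promoters of the table, which is the background to that count. Further letters were searched on both strands. The E-box variant CAGATG was in none of the 3 windows and in 14.5% of all promoters. The T-box motif letters GGTGTGA were in none of the 3 and in 3.31% of all. The letters of an RBPJ motif, GTGGGAA, were in none of the 3 and in 5.41% of all. These matches describe letters only.

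Levels below are CPM, the count of a gene per 1000000 UMIs summed over a label's cells in a sample, and sums of fewer than 10 cells enter no comparison, so that label 4 at E10.5 is given as a value only. One cell of label 4 with over 2% haemoglobin UMIs was set aside. The label's sums ran between 62017 UMIs at E18.5 and 641905 UMIs in the first E14.5 sample, with 15302 UMIs in the 8 cells of E10.5. The median share of mitochondrial UMIs per cell of label 4 moved with stage: 6.82% (E10.5), 4.07% (E12.5), 2.34% and 2.92% (both E14.5), 6.74% (E15.5), 7.21% (E16.5), then 7.81% (E18.5). Scrublet marked 4 cells of label 4 (0.488%) as doublets, against 2.01% of label 7, 0.875% of label 1 and 0.386% of label 0. No cell of label 4 carried a barcode that another library also held.

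With all samples summed, all 7 markers had their highest level of the 19 labels in label 4. Over all samples Eomes reached 1845 CPM in label 4, against 1017 CPM in label 7 and 360 CPM in label 0, the next highest labels. Neurog2 reached 1176 CPM in label 4, against 627 CPM in label 7 and 110 CPM in label 1. Gadd45g and Mfng, at 943 and 320 CPM in label 4, stood only a little above label 7, at 882 and 276 CPM, in these pooled values. Of the 497 cells of label 7, 308 came from E12.5. In that sample Gadd45g was lower in label 4 (728 CPM) than in label 7 (1101 CPM). At each later shared sample it was higher in label 4, with 835 against 92.3 CPM at E15.5. Mfng had 426 against 343 CPM at E12.5 and 228 against 49.7 CPM at E15.5. In the pooled values Btg2 (329 CPM) and Rhbdl3 (88.5 CPM) stood further above label 7 (174 and 45.9 CPM). Mfap4, at 262 CPM, was followed by label 0 at 181 CPM. The labels are clusters of the same cells by their expression, so these differences describe the clustering and carry no test.

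Among samples, Eomes had 1561 CPM at E12.5, 1785 and 1747 CPM at E14.5, 2379 CPM at E15.5, 2339 CPM at E16.5 and 2080 CPM at E18.5 in label 4, with 915 CPM in the 8 cells of E10.5. Its lowest sums were the earliest, yet the slope of 0.11 log2 units per day did not pass the test (SE 0.06, adjusted p = 0.45, edgeR quasi-likelihood test). Neurog2 had 1023, 1351, 1178, 1091, 1054 and 838 CPM in the same 6 samples, from E12.5 to E18.5, and stayed within a narrow band. Gadd45g had 728, 1013, 1057, 835, 1109 and 790 CPM, again with no ordered course, while the 8 cells of E10.5 stood at 3006 CPM. Mfng had 523 CPM in the 8 cells of E10.5 and 426 CPM at E12.5, and lay between 198 and 228 CPM from E15.5 on. Its slope of -0.20 log2 units per day had an unadjusted p of 0.0123 and an adjusted p of 0.244. None of the 7 markers passed the test for a slope over embryonic day in label 4, beside 1.02% of all genes tested.

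**Figure D1:**
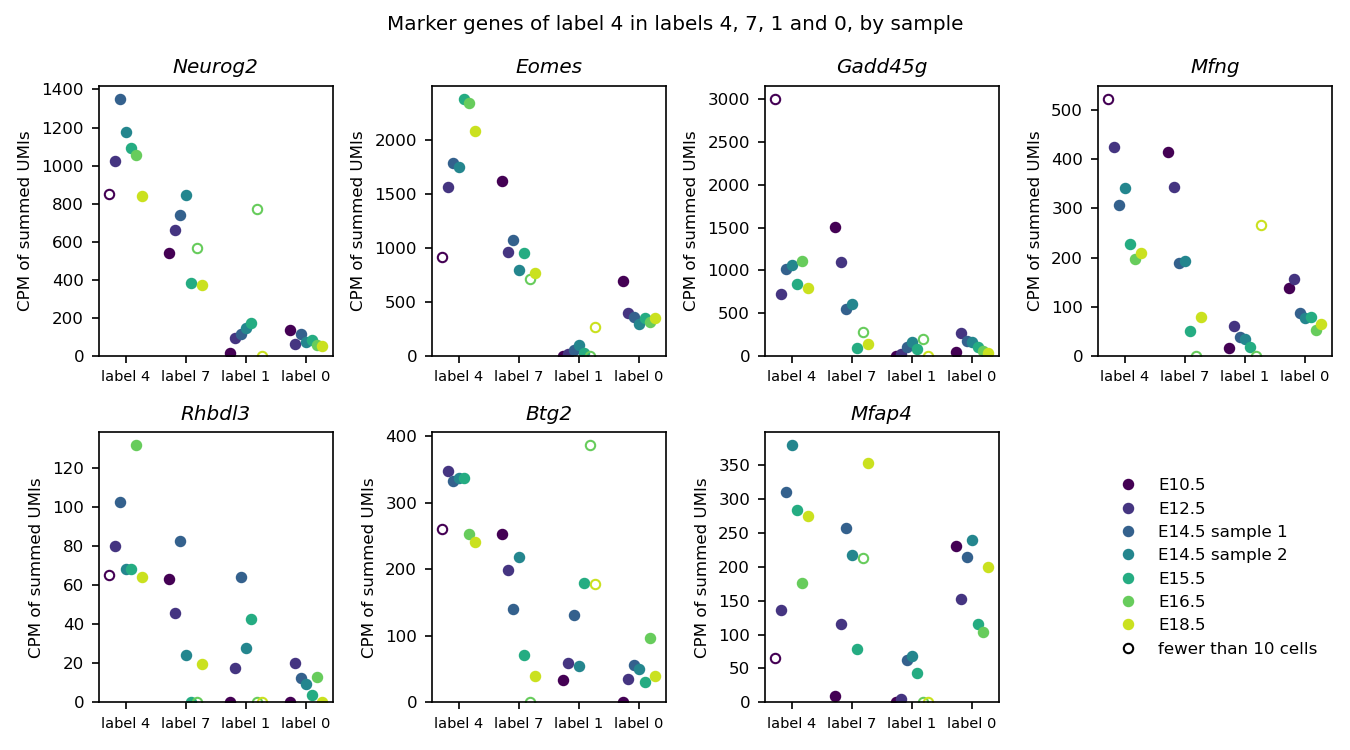
Levels of the 7 markers (CPM) in label 4 and in labels 7, 1 and 0, by sample. Label 4 has the highest pooled level of each marker; for Eomes its 6 samples lie between 1561 and 2379 CPM.

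Cells of label 4 often held UMIs of more than 1 marker. To compare cells at 1 depth, each cell was thinned to 1000 UMIs, which left 629 cells of label 4 (190 shallower cells left out), 421 of label 7 (76 left out), 847 of label 1 (288 left out) and 1388 of label 0 (424 left out). Eomes had a UMI in 76.6% of label 4 cells (95% exact interval 73.1 to 79.9%), 55.3% of label 7, 3.90% of label 1 and 20.6% of label 0. The interval takes the cells of 6 samples together and covers counting error only. By sample the Eomes share of label 4 ran from 64 to 92.4%. Neurog2 had a UMI in 60.3% of label 4, 37.8% of label 7, 9.21% of label 1 and 7.93% of label 0. Both genes were found in 45.8% of label 4 cells, against 22.3%, 0.590% and 2.45% of labels 7, 1 and 0. In label 4 that was close to the share that independent detection at its 2 single rates would give. Label 8, an interneuron-like label that should lack both, gave the background of the droplets at 1.17% for Eomes and 0.583% for Neurog2 in 343 cells; its median depth of 1520 UMIs was close to the 1593 UMIs of label 4. Without thinning, the shares of label 4 cells were 90.3% for Eomes and 78.2% for Neurog2.

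At least 3 of the 7 markers had a UMI in 56.8% of label 4 cells, against 29.5% of label 7, 1.42% of label 1 and 4.61% of label 0. None of the 7 was found in 1.59% of label 4 cells, against 9.50%, 70.6% and 54.5%. Label 4 also held transcripts of the states on either side of it. Hes5, a Notch target of radial glia, was seen in 41.7% of its thinned cells (8 to 55.7% by sample), against 35.9% of label 7, 64.7% of label 1 and 1.51% of label 0, with 0.292% in label 8. Neurod6, a bHLH factor of young glutamatergic neurons, was seen in 55.8% (12 to 63.8% by sample), against 58.4%, 5.31% and 88.6% of labels 7, 1 and 0, with 4.66% in label 8. These and the further genes named without a rank in this account (Mki67, Top2a, Sox2, Hes1, Hes5, Neurod1, Neurod6, Tbr1 and Dcx) were chosen after their values were seen. Sox2, a stem cell factor, had a UMI in 20.7% of label 4 cells, against 24.5% of label 7, 47.5% of label 1 and 2.02% of label 0. Hes1, the other main Notch effector, was found in 6.68%, against 11.9%, 38.3% and 0.432%. Tbr1, a transcription factor of deep-layer neurons that follows Eomes in the lineage, was found in 6.52%, against 7.60%, 0.236% and 21.5%, and Dcx, a microtubule protein of migrating neurons, in 26.4%, against 18.8%, 2.95% and 52.2%.

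Label 7 shared the markers of label 4 and stood far above it in genes of G2 and M phase. In the 5 samples in which both labels had at least 10 cells, 201 of 4725 genes with a mean of at least 50 CPM in either label (4.25%) were at least 2-fold lower in label 4 in every sample, and 9 genes (0.19%) were at least 2-fold higher. Of the 53 listed genes of G2 and M phase, 52 reached that level and 48 were at least 2-fold lower in label 4 in every sample; the median member stood at -5.10 log2 units, beside 0.11 over all 4725 genes. Of 43 genes of S phase, 40 reached the level and 13 were lower in every sample, with a median of -1.85. No member of either list was higher in label 4 by that rule. A gene could reach the level through label 7 alone, so these counts describe the 2 clusters and test nothing. Of the 53 G2 and M phase genes, 12 had enough counts to enter the slope fit of label 4. Summed over all 53 genes without that minimum, label 4 stood at -3.27 log2 units relative to label 7 at the median sample. A minimum met in either label also applies to the counts against labels 1 and 0 below.

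Of the genes furthest below label 7, Cenpf, a kinetochore protein, averaged 22.3 ± 11.99 CPM in label 4 and 1596 ± 444 CPM in label 7 (SD, n = 5 samples). Cep55, which acts in the last cut between daughter cells, averaged 0.312 ± 0.697 CPM in label 4 and 184 ± 58.1 CPM in label 7. Kif23, a kinesin of the central spindle, averaged 5.55 ± 5.85 CPM in label 4 and 478 ± 56.8 CPM in label 7. The other genes of the first 10 by this order were Casc5, Gtse1, Kif2c, Pbk, Nusap1, Kif20a and Sgol2, and Gtse1 had no UMI in any of the 5 label 4 sums, against a mean of 66.1 CPM in label 7. Mki67, the standard marker of cycling cells, had 58.9 CPM at E12.5, 67.0 and 31.6 CPM at E14.5, 45.7 CPM at E15.5, 54.9 CPM at E16.5 and 80.6 CPM at E18.5 in label 4, against 1212, 1160.3, 1816, 2784 and 1703 CPM in label 7 at E12.5, E14.5, E15.5 and E18.5. The 2 labels did not overlap in any sample. A UMI of Mki67 or Top2a, a topoisomerase of dividing cells, was found in 7.95% of thinned label 4 cells (95% exact interval 5.96 to 10.3%), against 86.7% of label 7, 27.0% of label 1 and 4.32% of label 0, with 2.92% in label 8. That interval, too, covers counting error over pooled cells only. By sample, label 4 ran from 3.28 to 8% for Mki67 and from 0 to 9.09% for Top2a.

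Higher in label 4 than in label 7 stood Rundc3a, a neuronal RUN domain protein, at 66.8 ± 31.0 CPM in label 4 and 15.003 ± 9.17 CPM in label 7 (SD, n = 5 samples). Dpysl4, a protein of the collapsin response family that acts on the axonal cytoskeleton, averaged 110 ± 45.9 CPM in label 4 and 15.8 ± 15.5 CPM in label 7. Mxd4, a Max-binding repressor that opposes Myc, averaged 210.4 ± 29.9 CPM in label 4 and 58.9 ± 42.7 CPM in label 7. The other genes of the first 10 were Gamt, Nkain4, Mmd2, Ccdc136, Myo6, Cd151 and Iqsec1, with smallest differences over the samples between 0.98 and 1.52 log2 units. Counts in label 7 were low for several of these. Rundc3a had 13, 5, 0, 2 and 1 UMIs there in the 5 samples, and Dpysl4 had 27, 5, 0, 0 and 1. In the label 7 sum of the second E14.5 sample, 3 UMIs equal 72.6 CPM. None of the 16 genes of the intermediate progenitor list was 2-fold apart in every sample, and the list's summed level was 0.76 log2 units higher in label 4 at the median sample, with a range of 0.31 to 1.24. The summed level in label 7 was lower at each later stage, with 8291 CPM at E10.5 and 2916 CPM at E18.5, whereas label 4 lay between 6901 and 8867 CPM in its 6 samples.

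Against label 1, a radial glia-like label, label 4 had lower levels of radial glia genes and higher levels of neuronal ones. In the 4 samples with at least 10 cells of both, 187 of 4829 genes (3.87%) were at least 2-fold higher in label 4 in every sample and 171 (3.54%) at least 2-fold lower. All 25 measured genes of the apical radial glia list reached 50 CPM, and 18 of them were 2-fold lower in label 4 in every sample, with a median member of -2.02 log2 units beside 0.00 over all genes. Fabp7, a lipid-binding protein of radial glia, averaged 379 ± 86.2 CPM in label 4 and 3299 ± 1566 CPM in label 1 (SD, n = 4 samples). Ttyh1, a membrane protein of neural stem cells, averaged 125 ± 59.4 CPM in label 4 and 1094 ± 146 CPM in label 1. Id3, an inhibitor of bHLH factors, averaged 2.87 ± 3.34 CPM in label 4 and 88.8 ± 38.8 CPM in label 1. Ednrb, an endothelin receptor, and Psat1, a serine synthesis enzyme, were also among the first 10, with Kbtbd11, Cyr61, Vit, Sox2ot and Cenpm.

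Of the genes furthest above label 1, Neurog1, the close relative of Neurog2, averaged 127 ± 93.6 CPM in label 4 and 0.594 ± 1.19 CPM in label 1 (SD, n = 4 samples). Myt1, a zinc finger factor of early neurons, averaged 299.5 ± 22.5 CPM in label 4 and 6.37 ± 4.54 CPM in label 1. Sstr2, a somatostatin receptor of intermediate progenitors and migrating neurons, averaged 269.8 ± 70.5 CPM in label 4 and 5.75 ± 4.24 CPM in label 1. Neurod1, a bHLH factor downstream of Neurog2, averaged 499 ± 160.1 CPM in label 4 and 13.9 ± 10.1 CPM in label 1. The set was completed by the bHLH factors Nhlh1 and Nhlh2, St18, Cbfa2t3, Slc17a6, a vesicular glutamate transporter, and Cxcl12, a chemokine. Of the 25 genes of the newborn and projection neuron list, 19 reached 50 CPM and 13 were 2-fold higher in label 4 in every sample.

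Against label 0, a newborn neuron-like label, the order was the other way round. In 6 samples, 81 of 4618 genes (1.75%) were at least 2-fold higher in label 4 in every sample and 115 (2.49%) at least 2-fold lower. Of the radial glia list, 20 genes reached 50 CPM and 12 were 2-fold higher in label 4 in every sample; of the newborn neuron list, 23 reached it and 9 were lower. Lpar1, a receptor for lysophosphatidic acid, averaged 78.3 ± 41.1 CPM in label 4 and 3.09 ± 4.01 CPM in label 0 (SD, n = 6 samples). Notch1, the main Notch receptor of the ventricular zone, averaged 103 ± 9.91 CPM in label 4 and 7.40 ± 1.92 CPM in label 0. Neurog2 averaged 1089 ± 170.2 CPM in label 4 and 73.4 ± 23.1 CPM in label 0, and Hes5, Sox21, Myo10, Smoc1, Nr2e1, Rcn1 and Slc1a3 completed the first 10.

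Of the genes furthest below label 0, Cntn2, an axonal adhesion molecule, averaged 23.6 ± 9.49 CPM in label 4 and 536 ± 185 CPM in label 0 (SD, n = 6 samples). Stmn2, a tubulin-binding protein of growth cones, averaged 53.2 ± 17.5 CPM in label 4 and 709.8 ± 332 CPM in label 0. Myt1l, a neuronal zinc finger factor related to Myt1, averaged 58.7 ± 11.7 CPM in label 4 and 687 ± 116 CPM in label 0. Actl6b and Dpf1, subunits of the neuronal chromatin remodelling complex, were among the first 10 as well, with Sema3c, Flrt2, Clmp, Bhlhe22 and Gstm7.

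**Figure D2:**
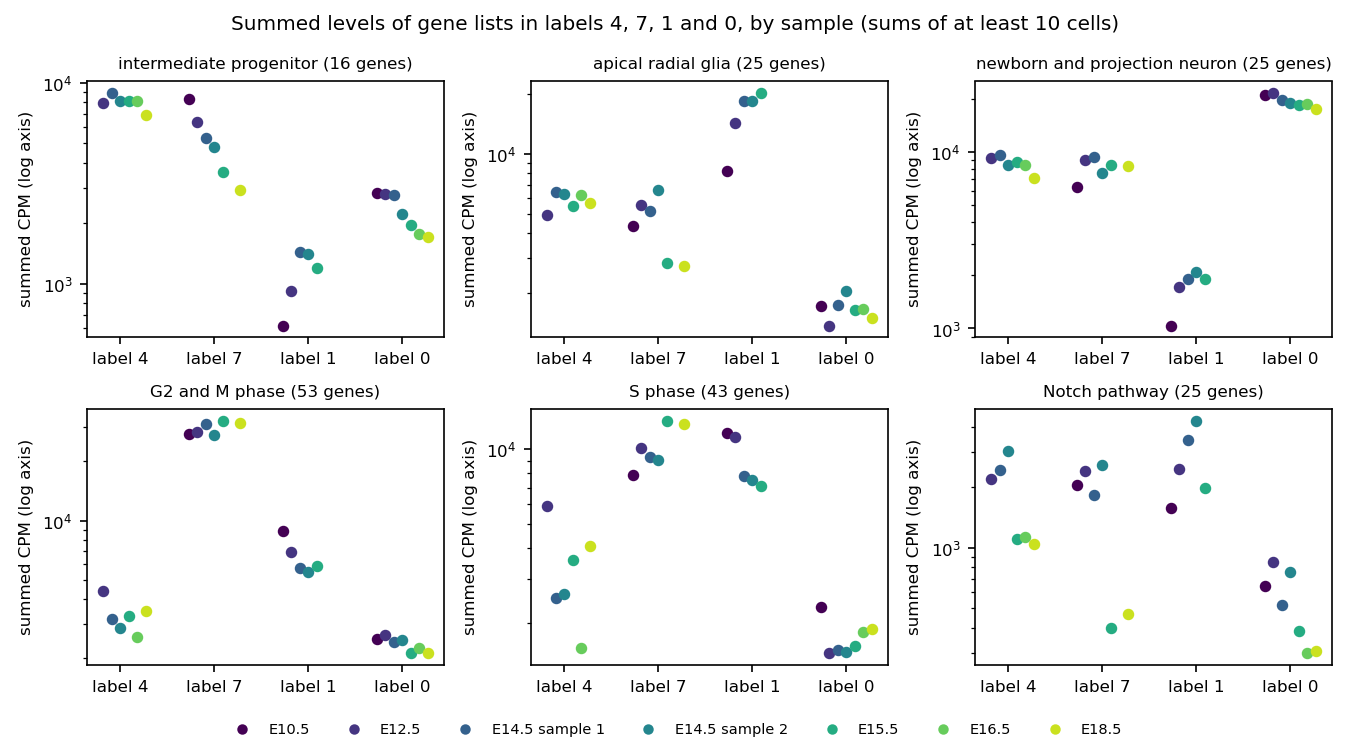
Summed levels of 6 gene lists (CPM, log axis) in label 4 and in labels 7, 1 and 0, with 1 point per sample of at least 10 cells, coloured by stage. The G2 and M phase sums of label 4 lie between 2581 and 4392 CPM and those of label 7 between 27291 and 32167 CPM.

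The 25-gene Notch list took a middle place, with its summed level 0.50 log2 units lower in label 4 than in label 1 at the median sample and 1.84 higher than in label 0. Over the stages it had 2209 CPM at E12.5, 2443 and 3030.3 CPM at E14.5, 1100.2 CPM at E15.5, 1131 CPM at E16.5 and 1048 CPM at E18.5 in label 4. The 3 samples from E15.5 on lay below the 3 earlier ones, and no test was made on this sum. Label 7 showed the same step, with 2413, 1825 and 2567 CPM at E12.5 and E14.5 and 398 and 470 CPM at E15.5 and E18.5. Label 0 had 846, 521 and 760 CPM, then 387, 299 and 306 CPM from E15.5 on. The drop was therefore not particular to label 4. Hes5, whose levels are given below, made up a large part of the label 4 sum up to E14.5. The Notch ligands Dll1 and Dll3, chosen after their values were seen, averaged 80.7 ± 39.4 and 59.0 ± 22.7 CPM in label 4 (SD, n = 6 samples).

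Markers of other cell types of the forebrain were low in label 4. Of 14 interneuron genes, Dlx6, Gad1 and Sp9 had no UMI, and the summed level over samples lay between 10.98 and 129 CPM. Of 11 Cajal-Retzius genes, Trp73, Lhx5 and Calb2 had none and the highest was Nhlh2 at 71.6 CPM, a gene that the bHLH list holds too; the sum lay between 16.1 and 142 CPM. For the oligodendrocyte lineage, Olig1, Cspg4, Sox10 and Gpr17 were at 0 and the sum of 7 genes reached at most 15.8 CPM. The 12 endothelial and mural genes summed to 2.68 to 32.2 CPM, the highest at E18.5, with Pecam1 and Kdr at 0. The 10 microglia genes had no UMI in any sum of at least 10 cells, and the 10 mesenchymal genes at most 1.56 CPM. The 9 erythroid genes summed to 0 to 145 CPM, with Hbb-bs the highest.

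Label 4 was rare at E10.5 and E18.5 and most common at E14.5. Its share of all cells was 0.683% at E10.5 (95% exact interval 0.295 to 1.34%), 8.96% at E12.5 (7.90 to 10.1%), 11.7% (10.6 to 12.9%) and 12.2% (9.51 to 15.4%) at E14.5, 7.40% at E15.5 (5.86 to 9.18%), 6.98% at E16.5 (4.65 to 9.99%) and 2.35% at E18.5 (1.59 to 3.33%). The intervals cover counting error only. By library, the shares were 9.85 and 7.91% at E12.5, 11.7 and 11.7% in the first E14.5 sample and 1.92 and 3.16% at E18.5. As the share first climbs and then drops, it followed no line over days (r = 0.04, exact permutation p = 0.912; rho = -0.13, p = 0.798, n = 7 samples, two-sided).

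Among cells with label 4 or 7, the share of label 4 was 24.2% (E10.5), 43.7% (E12.5), 80.3% and 86.1% (both E14.5), 64.7% (E15.5), 87.1% (E16.5), then 65.2% (E18.5). The first 2 stages were below all later samples, and the relation with day did not pass the test (r = 0.69, exact permutation p = 0.0984, adjusted over 3 shares 0.148; rho = 0.59, p = 0.170, adjusted 0.255, n = 7). Without the E10.5 sample r was 0.33, as among cells with at most 5% mitochondrial UMIs (0.33), and without the E18.5 sample it was 0.89 (adjusted p = 0.0583). Among cells with label 4 or 0, the share was 34.8% (E10.5), 32.9% (E12.5), 33.8% and 31.2% (both E14.5), 26.5% (E15.5), 28.7% (E16.5), then 15.9% (E18.5). It fell with day (r = -0.85, exact permutation p = 0.00476, adjusted 0.0143; rho = -0.90, p = 0.00952, adjusted 0.0286, n = 7), and r was -0.70 without the 2 samples farthest from the middle of the day axis. The call on r was lost without the E10.5 sample (adjusted p = 0.0833) or the E18.5 sample (0.0583). That on rho was lost when any 1 of the 7 samples was left out (adjusted p 0.05 to 0.108, threshold under 0.05) and among cells with at least 1000 UMIs (0.105). Pearson's r was -0.03 among cells with at most 5% mitochondrial UMIs (adjusted p = 0.967).

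**Figure D3:**
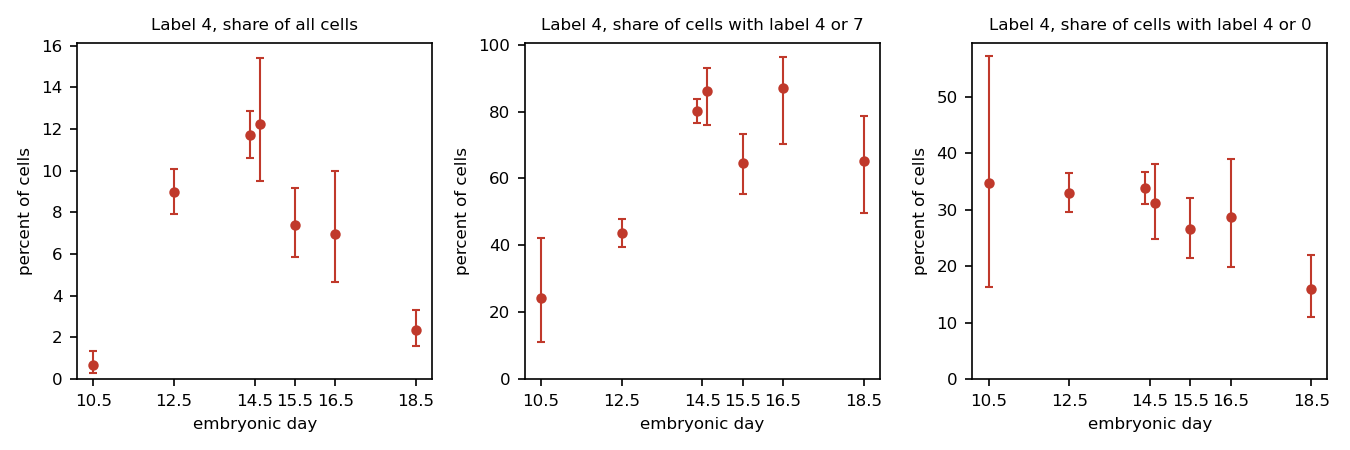
Share of label 4 (percent, with 95% exact binomial intervals) by sample, in order of embryonic day, among all cells, among cells with label 4 or 7 and among cells with label 4 or 0. Its share of all cells is 0.683% at E10.5, 11.7 and 12.2% in the E14.5 samples and 2.35% at E18.5.

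The median cell of label 4 held fewer UMIs than that of label 7 in each of the 5 samples compared. The median was 1593 UMIs per cell in label 4, 2161 in label 7, 1462 in label 1 and 1531.5 in label 0. Within samples the log2 ratio of label 4 to label 7 averaged -0.33 ± 0.22 (SD, n = 5), lower in 5 of 5 samples. The exact sign-flip permutation test gave p = 0.0625, the smallest p that 5 samples allow, and 0.141 after adjustment over the 3 labels. Among cells with at most 5% mitochondrial UMIs the ratio averaged -0.13 ± 0.63 (SD, n = 4), lower in 3 of 4 samples. Against label 0 the ratio averaged 0.14 ± 0.16 (SD, n = 6), higher in 5 of 6 samples, with an exact permutation p of 0.0938 (smallest possible 0.03125) and an adjusted p of 0.141. Against label 1 it averaged 0.08 ± 0.25 (SD, n = 4; exact permutation p = 1, smallest possible 0.125).

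Over the stages, Zbtb20, Egr1, Fos, Mfge8, Slc1a3 and Dbi were among the genes that rose in label 4, while Pak3, Neurog1, Neurod6, Ccnd1 and Hes5 fell. In its 6 sums from E12.5 to E18.5, 33 of 4902 genes rose with embryonic day (0.673%) and 17 fell (0.347%), at an adjusted p under 0.05 in the edgeR quasi-likelihood test. In either direction 1.02% of all genes tested were called, which is the background to the counts of list members below. Slopes are log2 units per day. With 1 sample at each stage other than E14.5, a slope is what the design allows. Among cells with at most 5% mitochondrial UMIs, which left 4 samples with enough cells, no gene was called by edgeR (228 at an unadjusted p under 0.05).

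A rise spread over many cells was that of Zbtb20, a zinc finger repressor of late-born cortical neurons and of astrocyte formation. It had 182 CPM at E12.5, 450.2 and 637 CPM at E14.5, 1205 CPM at E15.5, 1197 CPM at E16.5 and 2048 CPM at E18.5. Every later stage but E16.5 was above all earlier ones, and at E18.5 the gene had UMIs in 26 of 30 cells. The slope was 0.60 (SE 0.07, adjusted p = 4.32e-05), and the call held without any 1 of the 6 samples (highest adjusted p 0.000911). Labels 7 and 0 moved the same way. Label 7 had 109 Zbtb20 UMIs of 766394 at E12.5 and 98 of 51089 at E18.5. Label 0 had 112 of 783504 and 554 of 280605 in those samples. The rise was therefore not particular to label 4.

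The radial glia list moved both ways. Of 20 tested genes of the radial glia list, Mfge8, a secreted phagocytosis factor of radial glia (slope 0.68, SE 0.15), Slc1a3, a glutamate transporter (0.50, SE 0.10), and Dbi, an acyl-CoA binding protein (0.32, SE 0.07), rose, Hes5 and Id4 fell, and 15 did not pass the test; the list's median slope was 0.02, beside -0.00 over all genes. Dbi had 573 CPM at E12.5, 961 and 831 CPM at E14.5, 1411 CPM at E15.5, 1911 CPM at E16.5 and 1661 CPM at E18.5 in label 4. Its 3 latest samples all stood above its 3 earliest. Gamt, which makes creatine, Aamdc, Smoc1, an extracellular calcium-binding protein, Sos2, a Ras exchange factor, Cadm3, an adhesion molecule, and Slc1a2, a second glutamate transporter, were the other steep rises, at 0.61 to 0.68. For Slc1a2, 19 of the 22 UMIs at E16.5 came from 1 cell. Mdga1, an adhesion molecule of upper-layer neurons, rose by 0.57 per day and was the 1 call among 9 tested genes of the upper-layer list. Without the E18.5 sample the calls of Slc1a3 (adjusted p = 0.343) and Gamt (0.141) were lost. Without the E12.5 sample those of Mfge8 (0.137), Dbi (0.143), Aamdc (0.139), Smoc1 (0.295), Sos2 (0.188), Cadm3 (0.159), Slc1a2 (0.0627) and Mdga1 (0.347) were lost, and each of these 8 genes lost its call without at least 2 further samples taken out singly.

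Among genes with a mean of at least 50 CPM, Egr1, Igfbp5 and Fos had the steepest rises. Egr1 and Fos are immediate early genes, which cells switch on within minutes of a stimulus. Egr1 had 10.7 CPM at E12.5, 1.56 and 15.8 CPM at E14.5, 155 CPM at E15.5, 65.9 CPM at E16.5 and 903 CPM at E18.5 (slope 1.29, SE 0.16, adjusted p = 4.32e-05). Fos had no UMI at E12.5, 40.5 and 63.1 CPM at E14.5, 114 CPM at E15.5, 54.9 CPM at E16.5 and 597 CPM at E18.5 (slope 1.004, SE 0.12, adjusted p = 4.32e-05). The E18.5 sample stood far above the others for both, with 56 UMIs of Egr1 in 14 of 30 cells and 37 of Fos in 12. Without that sample the slopes were 1.20 for Egr1 (adjusted p = 0.121) and 1.02 for Fos (0.0747), so that both calls were lost, and the Egr1 call was lost with DESeq2 too (adjusted p = 0.111). Labels 7 and 0 were also higher at E18.5 than at E12.5. In label 7, Egr1 had 0 and Fos 2 UMIs of 766394 at E12.5, and 15 and 8 of 51089 at E18.5. Label 7 had 43 Egr1 UMIs of 140795 at E15.5. In label 0, Egr1 had 5 and Fos 2 UMIs of 783504 at E12.5, and 99 and 122 of 280605 at E18.5. The rise was therefore not particular to label 4. Of the 7 tested genes of the immediate early and stress list, Egr1 and Fos rose in label 4, 5 did not pass and all 7 slopes were positive. The mitochondrial share, given above, was also highest at E18.5, and its part in this rise was not tested. Igfbp5, a secreted binder of insulin-like growth factors, rose by 1.01 per day (SE 0.15), but 15 of its 34 UMIs at E18.5 were in 1 cell, and the call was lost without that sample (slope 0.53, adjusted p = 0.559) and with DESeq2 (adjusted p = 0.196).

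Among genes with a mean of at least 50 CPM, the steepest fall was that of Pak3, a kinase of dendritic spine and axon growth. It had 442 CPM at E12.5, 185 and 216 CPM at E14.5, 63.9 CPM at E15.5, 65.9 CPM at E16.5 and 16.1 CPM at E18.5 in label 4. The 3 early samples were all above the 3 late ones, and the slope was -0.75 (SE 0.10, adjusted p = 0.000109), called without any 1 of the 6 samples as well. Neurog1 had 257 CPM at E12.5, 134 and 68.4 CPM at E14.5, 50.2 CPM at E15.5, 43.9 CPM at E16.5 and no UMI at E18.5 (slope -0.73, SE 0.12, adjusted p = 0.00193). Neurog1 was the 1 gene of 16 in the intermediate progenitor list that passed the test, and its call was lost without the E12.5 sample (slope -0.90, adjusted p = 0.123).

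Among 13 tested bHLH genes Neurog1 and Neurod6 fell and none rose. Neurod6 had 1623 CPM at E12.5, 1883 and 1536 CPM at E14.5, 1347 CPM at E15.5, 736 CPM at E16.5 and 290.2 CPM at E18.5 (slope -0.38, SE 0.08, adjusted p = 0.0173). Its call was lost without the E18.5 sample (slope -0.22, adjusted p = 0.38) and without the E16.5 sample (0.12). Label 7 had 1382 Neurod6 UMIs of 766394 at E12.5 and 24 of 51089 at E18.5. Label 0 had 2895 of 783504 and 415 of 280605 in those samples. Neurog1 had 141 UMIs in label 7 at E12.5 and 0 at E18.5. Neither fall was therefore particular to label 4. Ccnd1, the D-type cyclin that drives G1, had 281 CPM at E12.5, 81.0 and 73.7 CPM at E14.5, 54.8 CPM at E15.5, 65.9 CPM at E16.5 and 16.1 CPM at E18.5 (slope -0.69, SE 0.12, adjusted p = 0.00184), and -0.34 without the E12.5 sample (adjusted p = 0.678). Its relative Ccnd2, chosen after its values were seen, had a slope of -0.03 (adjusted p = 0.907). None of 27 tested S phase genes and none of 12 tested G2 and M phase genes passed the test, beside 1.02% of all genes tested. Lists of this size would hold few or no calls at that share. Of the S phase slopes 4 were positive, and the median was -0.12. In edgeR 6 S phase genes had an unadjusted p under 0.05, beside 577 of all 4902 genes.

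Hes5, the Notch target, fell. It had 913 CPM at E12.5, 1203 and 1605 CPM at E14.5, 278 CPM at E15.5, 340.5 CPM at E16.5 and 129 CPM at E18.5 in label 4 (slope -0.53, SE 0.13, adjusted p = 0.04). The 3 late samples were all below the 3 early ones. Hes5 was the 1 call among 11 tested Notch genes, and it was lost with DESeq2 (adjusted p = 0.141) and without the E15.5 (0.137), the E16.5 (0.213) or the E18.5 sample (0.272). Id4, an inhibitor of bHLH factors, had 490.1 and 409.7 CPM at E12.5 and in the first E14.5 sample and 63.9 to 137 CPM in the other 4 (slope -0.58, SE 0.12). Bcl11b, a regulator of subcerebral projection neurons, fell by 0.65 per day and was the 1 call among 5 tested deep-layer genes. Nrp1, a semaphorin receptor, and Plxna2, a plexin co-receptor, fell by 0.48 and 0.34 and were the 2 calls among 16 tested genes of migration. Meg3, a long noncoding RNA, Gng3, a neuronal G protein subunit, and Olfm1, a secreted olfactomedin, also fell, by 0.56, 0.54 and 0.45. The Meg3 call held without any 1 sample, while without the E12.5 sample those of Id4 (adjusted p = 0.0846), Bcl11b (0.391), Nrp1 (0.064), Plxna2 (0.137), Gng3 (0.175) and Olfm1 (0.864) were lost. With DESeq2 those of Bcl11b (0.119) and Olfm1 (0.329) were lost.

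**Figure D4:**
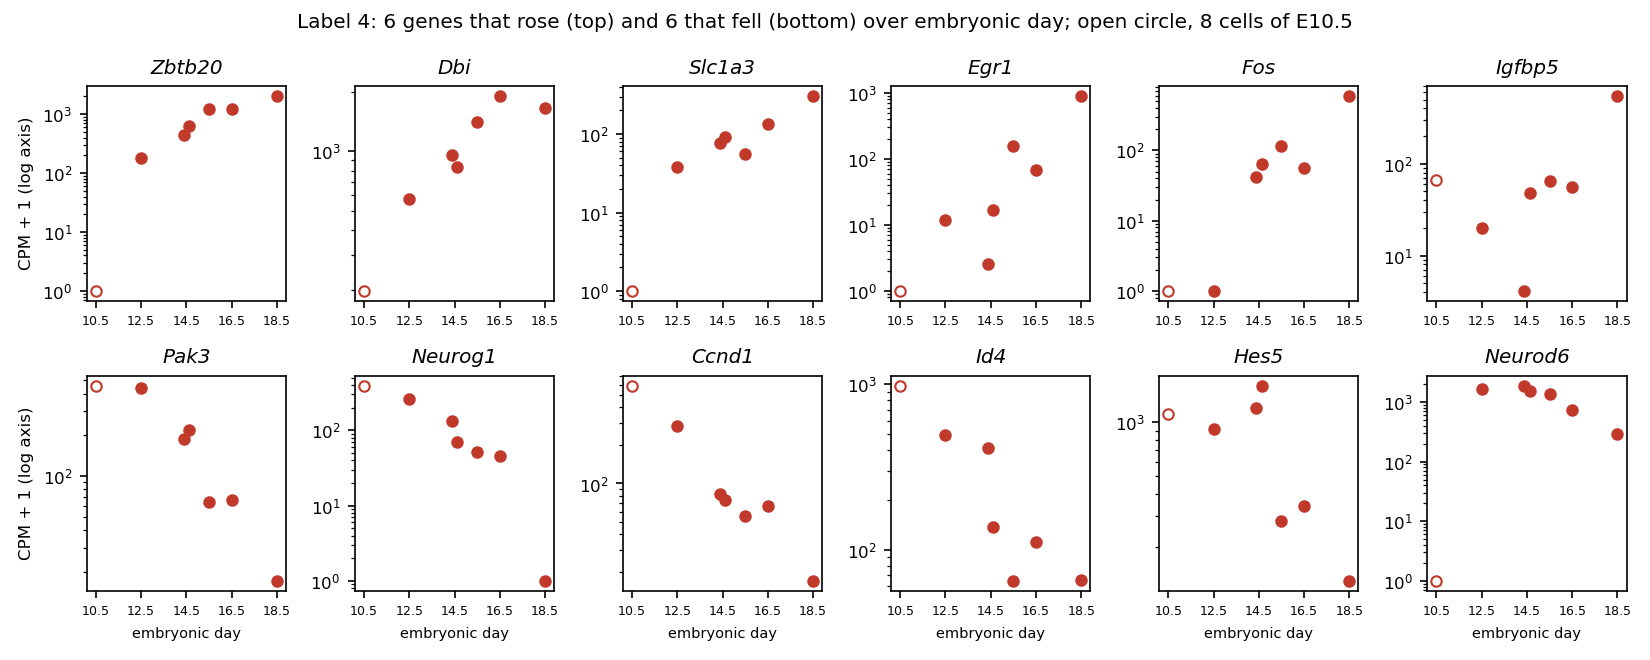
Levels (CPM, log axis) of genes of label 4 against embryonic day, by sample. Zbtb20 runs between 182 CPM at E12.5 and 2048 CPM at E18.5, and Pak3 between 442 and 16.1 CPM.

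Several genes took a different course in label 4 than in its neighbours. The slope difference between label 4 and label 7 passed the test for 15 of 5462 genes (0.275%) in 5 samples, that to label 1 for 8 of 6712 (0.119%) in 4 samples, and that to label 0 for 28 of 7355 (0.381%) in 6 samples. Of the 8 against label 1, 3 had the higher slope in label 4 (0.0447% of genes tested) and 5 the lower (0.0745%). Of the 28 against label 0, 19 had the lower slope in label 4 (0.258%). DESeq2 called none against label 7 (103 genes at an unadjusted p under 0.05), none against label 1 (55 genes) and 5 against label 0. Without the E12.5 sample the count against label 7 was 1.

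Gadd45g had a flat course in label 4 and a declining one in label 7. In label 4 it had 728 CPM at E12.5, 1013 and 1057 CPM at E14.5, 835 CPM at E15.5 and 790.1 CPM at E18.5. In label 7 it had 1508 CPM at E10.5, 1101 CPM at E12.5, 549 and 605 CPM at E14.5, 92.3 CPM at E15.5 and 137 CPM at E18.5. Fitted to each label alone over the shared samples, the slopes were 0.03 in label 4 and -0.68 in label 7. The difference comes from the interaction fit, with the sample as a block, and need not equal the difference of slopes fitted alone; it was 0.77 (SE 0.10, adjusted p = 9.79e-12). Without the E12.5 sample the difference was 0.58 and the call was lost (adjusted p = 0.834). Against label 0 the gene had slopes, fitted alone, of 0.04 in label 4 and -0.47 in label 0 and an interaction of 0.54 (SE 0.07, adjusted p = 1.35e-06; with DESeq2 0.000119), called without any 1 of the 6 samples too. Label 1, with 17.8 to 165.9 CPM in the 4 shared samples, had a slope of 0.95 fitted alone, beside 0.12 in label 4 over those samples, with an interaction of -0.83 (SE 0.17, adjusted p = 0.0013).

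Further genes differed in slope between label 4 and label 7. Nhlh1, a bHLH factor of newborn neurons (0.88), Ddit4, a stress-induced inhibitor of mTOR (0.66), Vim, the intermediate filament vimentin (0.49), and Hes5 (0.46) had the higher slope in label 4. Vim had 753, 865, 915, 1027 and 499.9 CPM in label 4 in the 5 shared samples, against 749, 539, 702, 213 and 117 CPM in label 7. The 2 labels were alike at E12.5 and 4-fold or more apart at E15.5 and E18.5. The lower slope in label 4 was that of Esco2, a cohesin acetyltransferase (-2.46), Birc5, which encodes survivin (-1.89), Rad51ap1, a recombination factor (-1.59), Tyms, which makes thymidylate (-1.10), Top2a (-0.83) and Lig1, a DNA ligase (-0.52). All of these calls were lost without the E12.5 sample. Esco2, Birc5 and Rad51ap1 were near the floor in label 4, at means of 7.27, 7.34 and 9.03 CPM, against 356, 391 and 173 CPM in label 7. They reached the minimum of 50 CPM for naming through label 7 alone. In label 4 they had 13, 12 and 14 UMIs at E12.5 and at most 2 UMIs in any later shared sample. Top2a had 137 CPM at E12.5 and 16.1 to 36.5 CPM at the later shared samples in label 4, against 1549.8 to 3494 CPM in label 7, so that its course in label 4 rests on the E12.5 sum.

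Against label 0, Nrp1 gave the difference that was called under each of 20 alternatives, DESeq2 included. It had 289 CPM at E12.5, 218 and 199.9 CPM at E14.5, 73.0 CPM at E15.5, 121 CPM at E16.5 and 16.1 CPM at E18.5 in label 4, against 391.8, 802, 790.3, 863, 935 and 570.2 CPM in label 0. Fitted to each label alone the slopes were -0.45 in label 4 and 0.10 in label 0, and the interaction fit gave a difference of -0.79 (SE 0.09, adjusted p = 8.31e-08). Pam, an enzyme that amidates peptides, went the other way, with 214, 257, 458, 580 and 604 CPM from E12.5 to E16.5 and 1096 CPM at E18.5 in label 4, against 345, 335, 336, 284, 253 and 399 CPM in label 0. Fitted alone the slopes were 0.41 in label 4 and 0.02 in label 0, and the interaction fit gave 0.38 (SE 0.06, adjusted p = 0.000276).

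**Figure D5:**
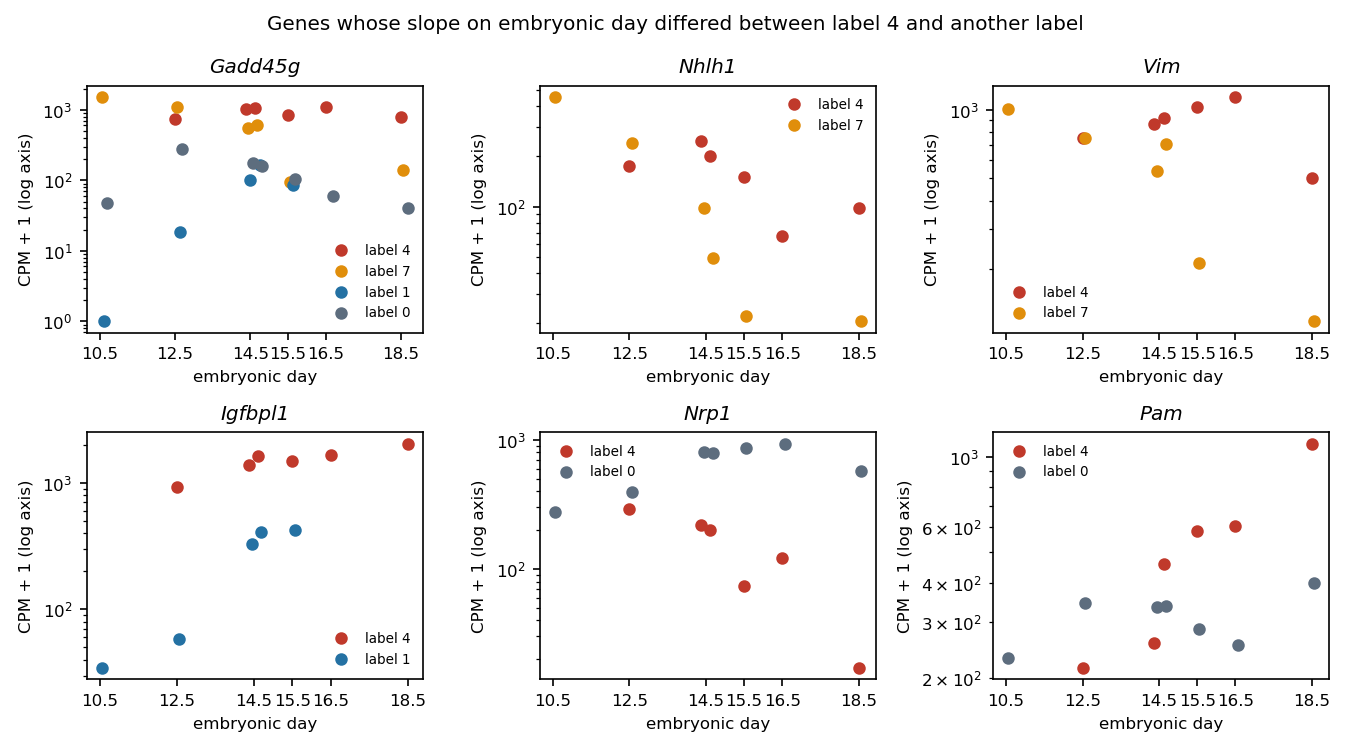
Levels (CPM, log axis) against embryonic day of genes whose slope differed between label 4 and another label, with 1 point per sample and label of at least 10 cells. Gadd45g stays between 728 and 1109 CPM in label 4 and reaches 92.3 CPM in label 7 at E15.5.

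Across the 17 labels with at least 50 cells, the genes whose levels ran most like those of Eomes were Fam110a (Pearson r = 0.910 of log2 of CPM plus 10), Cbfa2t2 (0.890), Neurog2 (0.888), Btbd17 (0.887), Igsf8 (0.874) and Gadd45g (0.873). The 17 points share libraries, and the r values are descriptive. Fam110a had 146 CPM in label 4, 135 CPM in label 7, 20.3 CPM in label 1 and 70.0 CPM in label 0. Cbfa2t2, a transcriptional corepressor, had 168 CPM in label 4, 97.7 CPM in label 7, 32.4 CPM in label 1 and 61.5 CPM in label 0.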

How the data were processed

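Drop-seq UMI counts of 7 samples of CD-1 dorsal forebrain were analysed. The authors deposited 1 matrix of raw counts per gene and cell with a table of cell labels. Per the submitters' processing notes the build was mm10 and the tools included Seurat 3.1.5; the labels' extract protocol names Drop-Seq tools 3.1. The making of the labels is not given in the sources used here. The fewest genes in a deposited cell were 501 and the highest mitochondrial share was 9.996%, so the filter on cells preceded deposit. Samples came from the library prefix of each cell name. Library E14_2.1, named in no label, was assigned by its prefix to the first E14.5 sample; it held 152 cells of label 4, and results were recomputed without it. The E16.5 sample lists a further library, none of whose cells were analysed here. The 21862 genes and 27776936 UMIs held 4 barcodes found in over 1 library (13 cells). In all, 13 cells with over 2% haemoglobin UMIs were set aside, while Scrublet calls (95 cells, 0.926%) were kept and removed in an alternative.

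UMIs were summed per sample and label (at least 10 cells) and fitted with edgeR 4.0.16 (TMM scaling, quasi-likelihood test, two-sided, Benjamini-Hochberg adjustment over all genes tested, threshold 0.05) under R 4.3.3. The model was a slope on embryonic day or, between labels, the interaction of label and day with the sample as a block. Genes with low counts were left out by edgeR's default filter. Alternatives were DESeq2 1.42.0, other filters, thinned sums, subsets of cells or libraries, and leaving out each sample. Levels between labels had no test, and log2 ratios there used 1 CPM added to both levels. Shares used exact permutation tests, and UMIs per cell exact sign-flip tests (scipy 1.17.1). The scripts for the fits were tested on simulated counts.

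Named genes are the 7 given markers, the 10 steepest called slopes per direction with a mean of at least 50 CPM, up to 4 called members per direction of each list, the 6 largest called slope differences per direction, the 10 genes per direction with the largest smallest-over-samples ratio, and the 6 genes most like Eomes. That naming passed over gene models without a name, sex-linked genes, and genes of haemoglobin, of ribosomal proteins and of the mitochondrial genome. The matrix had 397 of the 398 genes on the 23 lists. The label, the lists and the rules were chosen with earlier results of these data known.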

Additional observations from a re-analysis of the deposited data

Results flagged for a closer look

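Each result here is a difference between the slope over embryonic day in label 4 and that in another label, in log2 units per day, that passed the interaction test of edgeR with Benjamini-Hochberg adjustment. Positive values mean a higher slope in label 4. Slopes of single labels were fitted to each label alone, so that their difference need not equal the tested one.

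Against label 7 (5 samples), Nhlh1 differed by 0.88, with slopes fitted alone of -0.09 in label 4 and -0.83 in label 7, and Gadd45g by 0.77. Ddit4 differed by 0.66, Vim by 0.49, Hes5 by 0.46 and Cwc22, a splicing factor, by 0.36. In the other direction stood Esco2 at -2.46, Birc5 at -1.89, Rad51ap1 at -1.59, Tyms at -1.10, Top2a at -0.83 and Lig1 at -0.52. Esco2, Birc5 and Rad51ap1 were near the floor in label 4, with means of 7.27, 7.34 and 9.03 CPM. For Tyms, label 4 had 131 CPM at E12.5, 43.6 and 36.8 CPM at E14.5, 18.3 CPM at E15.5 and no UMI at E18.5, against 241, 374, 242, 369 and 372 CPM in label 7. For Ddit4, label 4 had 372, 467, 495, 338 and 306 CPM in those samples, against 341, 209, 48.4, 56.8 and 39.1 CPM in label 7. None of these 12 calls was made with DESeq2, nor without the E12.5 sample.

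Against label 1 (4 samples), Mpped1 differed by 2.61, Lrrn3, a leucine-rich repeat membrane protein, by 1.33 and Abracl by 0.51. Counts behind the first 2 were low. Mpped1 had 1 UMI in label 4 at E12.5, and 15, 23, 4 and 0 UMIs in label 1 from E12.5 to E15.5. Its slopes fitted alone were 1.25 in label 4 and 0.03 in label 1. Lrrn3 had 42, 5, 1 and 2 UMIs in label 1 in those samples. Lower slopes in label 4 were those of Pcdh17, a protocadherin, at -1.27, Gadd45g at -0.83, Lig1 at -0.79, Igfbpl1 at -0.79 and Map1b, a microtubule-associated protein, at -0.51. Igfbpl1, a relative of the insulin-like growth factor binding proteins, had 929, 1383, 1626 and 1475 CPM in label 4 from E12.5 to E15.5, against 57.0, 326, 408 and 419.8 CPM in label 1, so that both labels had their lowest level at E12.5. Map1b had 1288, 879, 947 and 593 CPM in label 4, against 1026, 1253, 1624 and 1482 CPM in label 1. None of these 8 calls was made with DESeq2. Without either E14.5 sample in turn, the calls of Mpped1, Gadd45g, Lig1, Igfbpl1 and Map1b held. With thinned sums each of those calls was lost. The calls of Mpped1 and Gadd45g were also lost with libraries of suffix 1 or of suffix 2 alone.

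Against label 0 (6 samples), Nkd1, a Wnt inhibitor, differed by 1.11, Sez6, a neuronal membrane protein, by 0.59, Gadd45g by 0.54, Fos by 0.52, Pcp4, a calmodulin regulator, by 0.52 and Pam by 0.38. Lower slopes in label 4 were those of Hs6st2, a heparan sulfate sulfotransferase, at -0.85, Nrp1 at -0.79, Hook1 at -0.76, Pak3 at -0.65, Tead1, a Hippo pathway transcription factor, at -0.51 and Rai14 at -0.51. Fos had no UMI at E12.5 and 597 CPM at E18.5 in label 4, against 2.55 and 435 CPM in label 0, and its call was lost without the E18.5 sample (adjusted p = 0.827) and without the first (0.108) or the second E14.5 sample (0.147). Tead1 had 102 to 146 CPM in the 6 samples of label 4, against 8.93 CPM at E12.5 and 132 CPM at E18.5 in label 0. Without single samples, the calls of Gadd45g, Pam and Nrp1 held in all 6 fits. Those of Nkd1, Hs6st2 and Pak3 were lost without E12.5, that of Pcp4 without E18.5, and those of Sez6, Rai14 and Tead1 without either of them. The Tead1 call was also lost without the first E14.5 sample (0.138), and the Hook1 call in 5 of 6 fits. With DESeq2 the calls of Gadd45g, Pcp4, Pam and Nrp1 were made and those of the other 8 genes were not.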

How the results depend on the processing

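No slope of label 4 was called among cells with at most 5% mitochondrial UMIs (0 genes in the 4 samples left, 228 at an unadjusted p under 0.05), and Neurod6 turned to 0.0105 there. Against 50 calls, no low count filter gave 162, thinned sums 29, using only libraries with suffix 1 or 2 gave 21 and 16 (suffix 1 leaves 4 samples, without E16.5 and the second E14.5 sample), leaving out library E14_2.1, an alternative chosen after seeing the data, gave 33, and leaving out each sample gave 20 to 66. For slope differences from label 7 (15 calls), DESeq2 gave 0, sums of at least 5 cells 28, thinned sums 1, low mitochondrial cells 3, suffix 1 gave 2 and leaving out samples 1 to 18. There Birc5 ran between -3.025 and 0.51 and Lig1 between -1.23 and 0.31, positive without E12.5. From label 1 (8 calls), DESeq2 gave 0, sums of at least 5 cells 35, stage rank 15, thinned sums 1, suffix 1 or 2 gave 2 and 5, and leaving out samples 7 to 14. From label 0 (28 calls), DESeq2 gave 5, thinned sums 4, low mitochondrial cells 4, suffix 1 gave 14 and leaving out samples 14 to 44. The causes were not tested. Of 1084 alternatives for 59 named called genes, 769 kept the call and 3 reversed. The correlation of the share among all cells with day was -0.0221 in low mitochondrial cells and -0.77 to 0.54 without single samples; that among labels 4 and 0 was -0.0284 and -0.89 to -0.78, and that among labels 4 and 7 was 0.33 and 0.33 to 0.89. Log2 ratios of UMIs per cell in low mitochondrial cells were -0.126 to label 7, -0.0635 to label 1 and -0.0862 to label 0, and -0.0464 to 0.13 to label 1 without single samples. With 10 CPM added, 5 genes rather than 9 were 2-fold higher than in label 7. Slope differences could not be fitted for label 7 with suffix 2, or for label 1 in low mitochondrial cells or without E12.5 or E15.5. Across stages, no paired analysis was possible because stages other than E14.5 have 1 sample each and share no second replicate number; comparisons between labels were made within samples throughout. Depth limits the late stages most, with 62017 UMIs at E18.5.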

Other observations

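Cwc22, a splicing factor, was high in the same samples in label 4 and in label 0. It had 313 CPM at E12.5, 393 and 1826 CPM at E14.5, 2442 CPM at E15.5, 176 CPM at E16.5 and 419 CPM at E18.5 in label 4. In label 0 it had 225 CPM at E12.5, 265 and 1235 CPM at E14.5, 1530.03 CPM at E15.5, 143 CPM at E16.5 and 460 CPM at E18.5. The second E14.5 sample and the E15.5 sample stood apart from the rest in both labels.

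Rpl26, a ribosomal protein gene chosen after its values were seen and called as rising in label 4 (slope 0.88, adjusted p = 0.0106, edgeR), had 16.1 CPM at E12.5, 185 and 21.0 CPM at E14.5, 488 CPM at E15.5, 967 CPM at E16.5 and 499.9 CPM at E18.5 in label 4. In label 0 it had 10.2, 147, 0, 445, 753 and 214 CPM in the same samples, so that the first E14.5 sample exceeded the second in both labels. The call was lost with DESeq2 (adjusted p = 0.057), without the E12.5 sample (0.0526), without the E16.5 sample (0.0938) and among cells with at most 5% mitochondrial UMIs.

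The metallothioneins Mt1 and Mt2, chosen after their values were seen, averaged 84.3 ± 50.7 and 96.2 ± 68.3 CPM in label 4 (SD, n = 6 samples). They averaged 12.8 ± 15.7 and 12.8 ± 15.1 CPM in label 7 (n = 6), 333 ± 261 and 292 ± 219 CPM in label 1 (n = 5), and 13.1 ± 8.52 and 5.61 ± 6.06 CPM in label 0 (n = 7). Cdkn1c, the cyclin-dependent kinase inhibitor p57, also chosen after its values were seen, had 1568 CPM in the 8 cells of label 4 at E10.5, and 2511 CPM in label 7 and 786 CPM in label 0 at that stage. At E18.5 it had 80.6 CPM in label 4, 19.6 CPM in label 7 and 171 CPM in label 0.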
